A study of Homo sapiens with 12 samples.

Results

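The experiment described here is the response of CAOV3 cells, a line derived from a human ovarian adenocarcinoma, to bezafibrate given together with ascites, set against control cells. It comprises the 3 libraries titled as bezafibrate plus ascites and the 3 titled as control, 6 of the 12 libraries of the series, chosen by their titles alone. Control cells received the solvent DMSO. The combined group received 200 uM bezafibrate and 10% ovarian cancer ascites, added as 150 uL to 1.5 mL of medium, for 16 h. The other libraries came from cells given the same ascites with DMSO or the same dose of bezafibrate without ascites, 3 libraries each. They enter the shared estimate of the spread, are plotted beside the others, and are otherwise described only where the combination differed from them. With the combination and control libraries fitted alone 1886 genes were called. All 4 groups were kept in medium with 10% fetal bovine serum. No time is listed for the control group, and DMSO is named only for the groups without bezafibrate, so a difference between combination and control can hold any difference in solvent as well as both agents. The labels say neither whether the replicates are separate cultures nor whether the ascites came from 1 source, so the p-values measure the spread between these libraries, which may be technical.

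Bezafibrate belongs to the fibrates, lipid-lowering drugs that bind the peroxisome proliferator-activated receptors PPARA, PPARD and PPARG. These nuclear receptors pair with a retinoid X receptor on DNA and switch on genes for the uptake, storage and burning of fatty acids when a fatty acid or a drug occupies them. Ascites, the abdominal fluid of advanced ovarian cancer, carries lipoproteins, fatty acids, growth factors, iron-bound transferrin and cytokines to the tumour cells that float in it.

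The 6 libraries held between 11831093 and 17120740 counts and between 14206 and 14550 detected genes, and 12470 of 19677 listed genes had enough counts to be tested. Replicates were close, with a biological coefficient of variation of 3.06%. The third combination library stood apart from the other libraries on the second principal component of the 6, at 20.4 against values from -11.8 to 2.72, and that component held 18.1% of the variance. The first component, with 44.2%, separated the groups. Without that library 2385 genes were called, against 2273 with it. The label of the cells was checked against markers of serous ovarian carcinoma. Keratins were abundant, with KRT8 at a mean of 3015 CPM (counts scaled to a common library size) in control, KRT18 at 1790 and KRT7 at 765. In contrast PAX8 had 16 counts over the 3 control libraries, WT1 5, MUC16 4 and SOX17 0, so these serous markers were near or at 0. Other members of the list were not, with CD24 at a mean of 41.9 CPM in control, MECOM at 39.0 and EPCAM at 27.7. FOLR1, MSLN and ESR1 had 10, 25 and 6 counts over the control libraries. Markers of blood cells were also scarce. Of 13 leukocyte markers 7 had no count in any of the 6 libraries, including PTPRC, and 3 of 5 platelet markers had none. The summed leukocyte list lay between 3.03 and 4.03 CPM in control and between 3.62 and 5.16 CPM in the combination. Fibroblast markers were divided, with LUM at a mean of 185 CPM and PDGFRA at 43.3 CPM in control. Over the 3 control libraries COL1A1 had 254 counts, COL3A1 159, PDGFRB 13 and DCN 1, while COL1A2 and FAP had none.

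Which genes differ between cells given bezafibrate with ascites and control cells is the question of the comparison. In the combination 2273 genes, 18.2% of those tested, differed from control at an adjusted p under 0.05 in edgeR's quasi-likelihood test. Of these 1280 were higher, 10.3% of the genes tested, and 993 were lower, 7.96%. The balance depended on the scaling: upper-quartile scaling gave 1135 higher and 1267 lower, and total counts alone 1190 and 1174. The libraries of both groups were fully apart, in either direction, for 3762 genes or 30.2% of those tested, and 2150 of the called genes were among them. Most changes were small: the median called rise was 0.33 on the log2 scale and the median called fall was -0.24, while the median over all genes tested was -0.003. These are bulk libraries, in which fewer cells of a type and less RNA per cell cannot be told apart. Changes of at least 2-fold were mostly rises, 119 against 39 falls. At 4-fold or more the count was 27 rises and 2 falls, and at 8-fold or more 8 rises and no fall. The genes that rose at least 2-fold took 0.136% to 0.140% of all counts in control libraries and 0.525% to 0.544% in the combination.

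**Figure D1:**
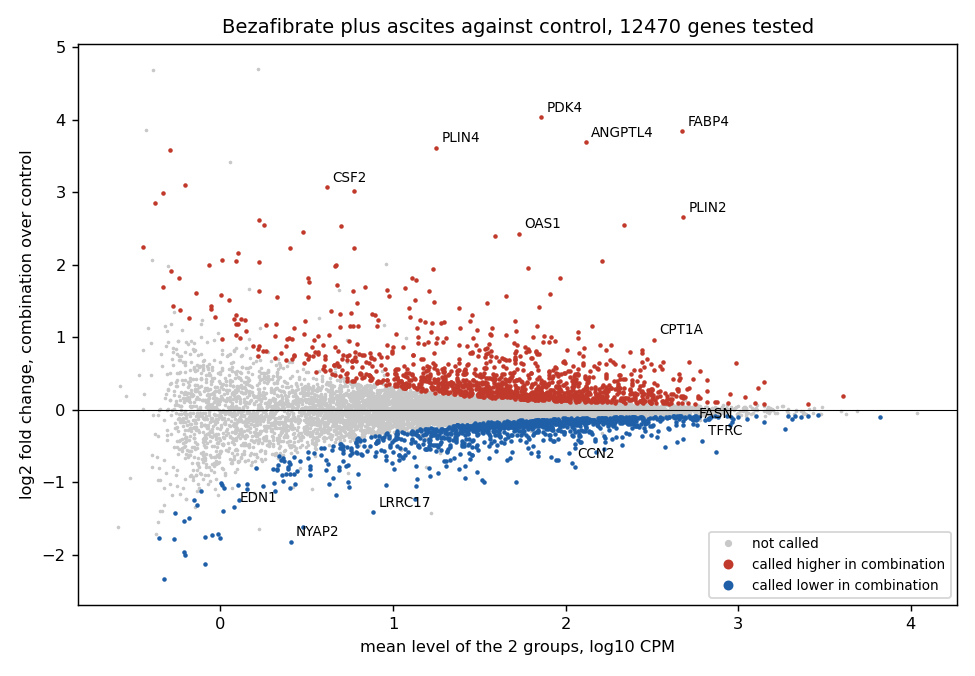
The plot shows log2 fold change (combination over control, vertical) against mean level (log10 CPM, horizontal) for the 12470 genes tested, with called genes in red (1280 higher) and blue (993 lower). PDK4, ANGPTL4, FABP4 and PLIN4 are among the genes above 3.5 on the vertical axis, and no called gene falls as far below 0.

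The largest called rises among genes of at least 1 CPM included PDK4, FABP4, ANGPTL4 and PLIN4, all known fibrate or fatty acid genes. PDK4 encodes the kinase that shuts pyruvate out of mitochondrial oxidation, and it lies at chr7:95583499-95596491 on the minus strand of GRCh38. PDK4 stood at 8.52, 7.86 and 8.41 CPM in the 3 control libraries and at 128, 132 and 147 CPM with bezafibrate and ascites. No control library came near the combination libraries, and PDK4 rose 16.4-fold (log2 4.03 ± 0.07 SE, n = 3 per group, edgeR adjusted p 1.41e-33). ANGPTL4 (chr19:8363289-8374373, plus strand) encodes a secreted inhibitor of lipoprotein lipase, and it went from 19.9, 18.1 and 18.4 CPM to 246, 242 and 240 CPM. The rise was 12.9-fold (log2 3.69 ± 0.05 SE, n = 3 per group, edgeR adjusted p 7.18e-37), with tight replicates on both sides. FABP4, which encodes the adipocyte fatty acid-binding protein, rose from 62.7, 62.1 and 60.0 CPM to 867, 850 and 938 CPM, 14.3-fold (log2 3.84 ± 0.04 SE, n = 3 per group, edgeR adjusted p 4.91e-41).

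Among the receptors themselves, the changes were modest and went both ways. PPARD rose by 0.47 on the log2 scale from a mean of 9.85 CPM (edgeR adjusted p 0.00109), and PPARG fell by 0.34 from a mean of 89.8 CPM (edgeR adjusted p 4.49e-07). PPARG levels were 90.3, 87.9 and 91.2 CPM in control and 70.7, 69.8 and 72.3 CPM in the combination, without overlap. PPARA, the classical fibrate receptor, was at 4.43, 4.63 and 5.39 CPM in control and 6.22, 5.52 and 6.25 CPM in the combination, a difference of 0.32 that did not pass the test (edgeR adjusted p 0.154). RXRA, the partner receptor, had a log2 difference of 0.06 ± 0.05 SE and RXRB one of -0.04, neither of them called. Of 10 tested coregulators 2 were called, near the share of all genes: NCOR1, a corepressor, rose by 0.25 and CREBBP, a coactivator and acetyltransferase, had a log2 change of -0.18, also called. In the other lipid-sensing receptors NR1H3, the oxysterol receptor LXR alpha, rose from 9.82, 9.33 and 11.8 CPM to 26.7, 20.8 and 22.7 CPM, 2.30-fold. NR0B2, the orphan repressor SHP, fell by 0.62 and its activator NR5A2 fell by 0.42, while ESRRA, a regulator of mitochondrial genes, rose by 0.22.

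Coat proteins of lipid droplets rose together. Of 9 tested members of that list 6 were called higher and none lower, and the median log2 fold change was 0.27. PLIN2, the main droplet coat protein outside fat tissue (chr9:19108375-19149290, minus strand), stood at 130, 133 and 128 CPM in control and 839, 812 and 819 CPM in the combination, a 6.30-fold rise (log2 2.66 ± 0.03 SE). PLIN4 rose 12.2-fold, from 2.52, 2.64 and 2.93 CPM to 33.6, 33.6 and 31.8 CPM, and CIDEC, which fuses droplets, rose 3.24-fold. The smaller rises were in ABHD5, the activator of triglyceride lipase (0.40), FITM2 (0.27) and PLIN3 (0.13). The hypoxia-responsive droplet gene HILPDA had a log2 difference of -0.03 and was not called. FABP4, PLIN4, CIDEC and LIPE are also adipocyte markers, and their list summed to between 84.1 and 87.8 CPM in control and between 912 and 998 CPM in the combination. The adipocyte-defining gene ADIPOQ had no count in any of the 6 libraries, LEP had 1 count in all, and PLIN1 had 3 counts in control and 4 in the combination.

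Uptake, binding and activation of fatty acids followed the same course, with 10 of 17 tested members called higher, none lower, and a median of 0.39. After FABP4 the largest rise was that of FABP3, the heart-type fatty acid-binding protein, at 25.4, 24.8 and 24.4 CPM in control and 95.9, 94.9 and 99.9 CPM in the combination (3.89-fold). ACSL1 and ACSL5, which activate long-chain fatty acids with coenzyme A, rose by 1.40 and 1.31 on the log2 scale. FABP1, FABP5, DBI, SLC27A4, SLC27A2 and ACSL3 also rose, ACSL3 the least of them by 0.30. Fatty acid transporter SLC27A5 had a log2 difference of -0.29 and FABP6 one of -0.22, and neither was called.

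Of 24 tested genes of the carnitine shuttle and mitochondrial beta-oxidation, 13 were called higher and none lower (median 0.22). CPT1A encodes the enzyme that commits fatty acids to mitochondrial oxidation, and its levels were 225, 212 and 218 CPM in control and 399, 411 and 473 CPM in the combination. It rose 1.96-fold (log2 0.97 ± 0.05 SE, edgeR adjusted p 6.90e-10), and the highest of its values was in the combination library that stood apart. SLC25A20, the carnitine-acylcarnitine carrier, rose 2.30-fold, and SLC22A5, which brings carnitine into the cell, rose 1.69-fold. Both subunits of the trifunctional protein rose, HADHA by 0.54 and HADHB by 0.60, as did the acyl-CoA dehydrogenases ACADVL (0.43), ACADS (0.44) and ACADM (0.31). ETFDH and ETFA, which pass electrons from these enzymes to the respiratory chain, rose by 0.70 and 0.66, the first with part of its exons shared with a gene on the opposite strand. The respiratory chain itself moved little: 2 of 35 subunits tested, COX5B (0.14) and COX7A2 (0.15), were called higher, a share below that of all genes, with a list median of 0.02. That count rested on the libraries used, since it was 0 without the second or the third control library and 7 without the third combination library.

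Peroxisomal beta-oxidation gave 10 rises and no fall among 19 tested genes, with a median of 0.22. CAT, the catalase that removes the hydrogen peroxide made in peroxisomes, rose 1.57-fold from 78.3, 79.6 and 72.5 CPM to 122, 114 and 125 CPM. HSD17B4 rose by 0.57, ACAA1 by 0.55, ECH1 by 0.49, PHYH by 0.45 and EHHADH by 0.30. ACOX2, with a mean of 0.757 CPM in control, rose by 1.19, and ACAA1 shares exon sequence with a neighbour on the other strand. Of 15 tested genes that build peroxisomes 4 were called, all higher, a share of 26.7% beside 18.2% of all genes. Only PEX19 (0.44) among these 4 was called under every alternative tried at the same threshold, and it shares exon sequence with a neighbour. The called rises were 1 under DESeq2, and 1 or 2 when any 1 control library or the first combination library was left out. With upper-quartile scaling, with total counts alone or without the first control library 1 fall was called.

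In the pyruvate dehydrogenase list the kinases PDK4, PDK1 (0.47) and PDK3 (0.25) rose, PDK2 had a log2 difference of 0.07, and no subunit or phosphatase of the complex was called.

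**Figure D2:**
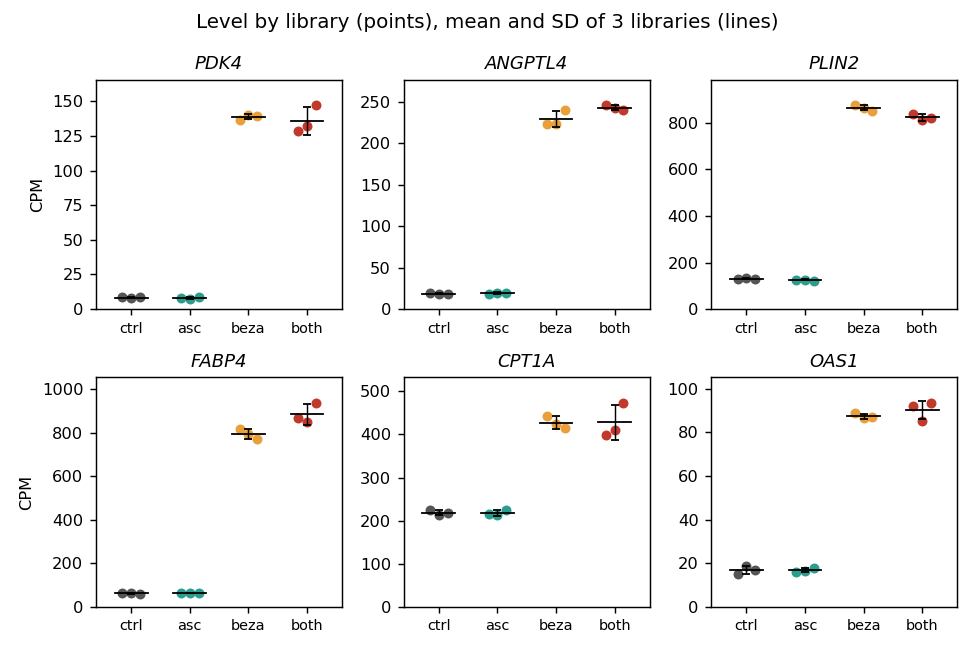
Each panel plots the level in CPM of 1 gene in the 3 libraries of control (ctrl), ascites (asc), bezafibrate (beza) and the combination (both), with points for libraries and lines for the mean and SD. In all 6 panels the combination libraries lie above all control libraries, as for PDK4 (128 to 147 CPM against 7.86 to 8.52) and OAS1 (85.4 to 93.5 CPM against 15 to 18.6).

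Glycerol handling and triglyceride turnover also moved. Both tested aquaglyceroporins, channels for glycerol as well as water, rose: AQP3 from 7.02, 6.10 and 8.09 CPM to 28.7, 24.1 and 28.2 CPM (3.85-fold), and AQP7 from 1.70, 1.10 and 1.67 CPM to 5.69, 5.18 and 4.22 CPM (3.39-fold). GK, the glycerol kinase, had a log2 difference of 0.12 and was not called. Among 18 tested genes of triglyceride synthesis and lipolysis 6 rose and 1 fell. AGPAT2, an acyltransferase of phosphatidic acid synthesis, rose 1.68-fold, and the lipases LIPE (0.35) and MGLL (0.34) rose as well. LPIN1, a phosphatidate phosphatase, fell by 0.25. The thioesterase ACOT11, which shares exon sequence with a neighbouring gene, rose 3.31-fold, while ACOT1 and ACOT2, near-identical copies whose reads can be split between them, had log2 differences of 0.03 and -0.03 and were not called. SLC25A42, a mitochondrial carrier of coenzyme A, rose 2.37-fold and UCP2, an uncoupling protein homologue, 1.23-fold. Of 8 mitochondrial carriers 5 were called higher, but 2 when only the compared groups were fitted or without the second control library, the third control library or the first combination library, and 3 without the second combination library. In the coenzyme A list PANK3 and PPCS were called among 7, and PPCS (edgeR adjusted p 0.0495) kept its call under few alternatives.

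Most called genes of cholesterol efflux rose, while those of sterol synthesis moved both ways. The efflux transporters ABCA1 and ABCG1, known targets of LXR, rose 1.72-fold and 1.86-fold, ABCA1 from 18.5, 21.5 and 21.7 CPM to 35.1, 34.9 and 35.7 CPM. LPCAT3, another LXR target, rose 1.81-fold, with most of its exon sequence shared with EMG1 on the opposite strand, and APOC1 rose 1.74-fold. SREBF1, also an LXR target, fell by 0.26 and MYLIP was not called (0.19). In all 5 of 12 tested genes of that list rose and 1 fell. Of 21 sterol synthesis genes 3 rose and 2 fell, 23.8% called and near the 18.2% of all genes. The list median was -0.02 (0.003 without the first control library). FDFT1, which makes squalene, rose by 0.38, while HMGCS1 fell by 0.29 and DHCR7 had a called change of -0.14. Without the first control library or the second combination library 1 of those falls was called. VLDLR, a receptor for triglyceride-rich particles, rose 5.26-fold, from 11.3, 13.2 and 12.8 CPM to 67.6, 64.3 and 63.7 CPM.

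Fatty acid synthesis showed no common direction, with 1 rise and 2 falls among 9 tested genes. FASN, the fatty acid synthase, was at 599, 577 and 572 CPM in control and 491, 553 and 490 CPM in the combination, lower by 0.19 on the log2 scale (edgeR adjusted p 0.000619). ELOVL6, which elongates the product of FASN, rose by 0.42. MLXIP fell by 0.12, a call lost when any control library was left out. SCD, the stearoyl-CoA desaturase, was at 1372, 1387 and 1372 CPM in control and 1439, 1434 and 1502 CPM in the combination, a small rise of 0.08. The SCD call was lost with upper-quartile scaling or with only the compared groups fitted. Leaving out the first control, the third control or the third combination library also removed it. The desaturase FADS2 fell by 0.22, and FADS1 had a log2 difference of -0.03 and was not called.

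Apolipoprotein genes gave 5 rises and no fall among 10 tested. Their median was 0.40, but 0.63 without the first control library, 0.73 with only the compared groups fitted and 0.90 with a filter at 1 CPM. CREB3L3, a membrane-bound transcription factor of liver and gut that drives genes of triglyceride clearance, rose 3.54-fold, from 42.7, 39.2 and 40.5 CPM to 147, 140 and 146 CPM. APOA2, a component of high-density lipoprotein, rose 2.51-fold, and the APOL family members APOL6, APOL1 and APOL2 rose by 1.56, 0.90 and 0.56. APOL3, chosen after its values were seen, had no count in the 3 control libraries and 3, 4 and 4 counts in the combination, too few to be tested. The promoter of CREB3L3 is shown. Among the searched promoters of listed and named genes, it alone held the strict repeat bound by PPAR-RXR pairs. Not every gene had a promoter to search: in this list 6 of the 10 tested genes had one. The search used AGGNCANAGGNCA on both strands in the 250 bases before each gene's start (RefSeq, GRCh38.p14), and 20 of 10037 promoters of tested genes, 0.199%, held it. The window chr19:4153381-4153630 on the plus strand is given with the match, which begins 222 bases before the start, in capitals.
CREB3L3: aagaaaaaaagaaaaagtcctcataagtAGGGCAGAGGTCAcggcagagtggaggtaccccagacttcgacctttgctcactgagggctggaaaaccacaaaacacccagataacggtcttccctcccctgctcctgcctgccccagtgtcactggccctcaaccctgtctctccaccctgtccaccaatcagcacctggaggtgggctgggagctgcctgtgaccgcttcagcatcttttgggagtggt
A match is a run of letters and not a measured binding site, and this window leaves out introns and distant sites.

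Iron genes gave 3 rises and 3 falls among 12 tested. TFRC encodes the transferrin receptor that brings iron into the cell (chr3:196027183-196082189, minus strand), and it stood at 712, 710 and 709 CPM in control and 510, 522 and 557 CPM in the combination. It fell by 0.42 on the log2 scale (± 0.03 SE, n = 3 per group, edgeR adjusted p 1.56e-14), with no overlap. The iron importer SLC11A2 fell by 0.25 and the ferritin heavy chain FTH1 had a called change of -0.08. HMOX1, which frees iron from heme, rose 1.59-fold from a mean of 4.70 CPM, ACO1, the iron regulatory protein, rose by 0.35, and FBXL5, an iron sensor, rose by 0.23.

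Set against bezafibrate alone, the combination differed in 16 genes, 0.128% of the 12470 tested. Of these 5 were higher with ascites present, 0.0401%, and 11 were lower, 0.0882%. Against ascites alone 2214 genes differed, 17.8%, with 1305 higher (10.5%) and 909 lower (7.29%). Both comparisons use the same combination libraries as the one with control. Of the 16 genes, 8 were also called against control. Of the other 8, INSIG1 was in the fixed set of named genes, and the rest were chosen for the text after their values were seen. TFRC had the smallest p-value of the 16, lower than with bezafibrate alone by 0.49 (edgeR adjusted p 1.31e-14). Its log2 difference from control was -0.57 ± 0.03 SE with ascites, 0.06 ± 0.03 SE with bezafibrate and -0.42 ± 0.03 SE with both, and its levels with bezafibrate alone were 745, 741 and 741 CPM.

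Of the 11 lower genes 4 belong to the list of sterol synthesis. INSIG1, which holds back the sterol-sensing factor SREBP when sterols are plentiful, was at 45.6, 44.2 and 41.2 CPM in control, 32.8, 33.6 and 33.3 CPM with ascites, 60.6, 57.5 and 59.4 CPM with bezafibrate, and 47.9, 45.3 and 47.4 CPM with both. The combination was thus lower than bezafibrate alone by 0.33 (edgeR adjusted p 0.000664) and did not pass the test against control (0.10, edgeR adjusted p 0.231). Against the drug alone the combination was lower by 0.30 in MSMO1, 0.25 in IDI1, 0.23 in SQLE and 0.14 in HMGCS1, all sterol synthesis genes. In the fatty acid branch the combination was lower by 0.22 in SCD, 0.19 in FASN and 0.16 in FADS1. FASN had a log2 difference from control of 0.002 with bezafibrate alone and -0.19 with both. TREX2, a low-level nuclease gene, was lower by 1.56 and was not called against control.

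The higher genes were of another kind. CCN1, CCN2 and ANKRD1, usual readouts of the YAP coactivator, were called below control in the combination but above bezafibrate alone. CCN2 stood at 130, 140 and 138 CPM in control, 147, 140 and 139 CPM with ascites, 67.8, 70.3 and 70.4 CPM with bezafibrate, and 82.7, 83.3 and 78.5 CPM with both. The combination thus lay between the drug and the control libraries, and its difference from the drug was 0.23 (edgeR adjusted p 0.0139). ANKRD1 differed by 0.40 (edgeR adjusted p 0.0314) and CCN1 by 0.26 (edgeR adjusted p 0.0125). FABP4 was higher than with the drug alone by 0.15 (edgeR adjusted p 0.0152), at 816, 797 and 772 CPM with bezafibrate. The last of the 5 was a gene without a symbol in the files. These calls were not stable: of the higher calls none was made when only these groups were fitted, 1 without the second bezafibrate library, 2 without the first and 12 without the third combination library. The count of 16 became 28 without the third combination library, 9 without the second bezafibrate library and 10 without the first.

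**Figure D3:**
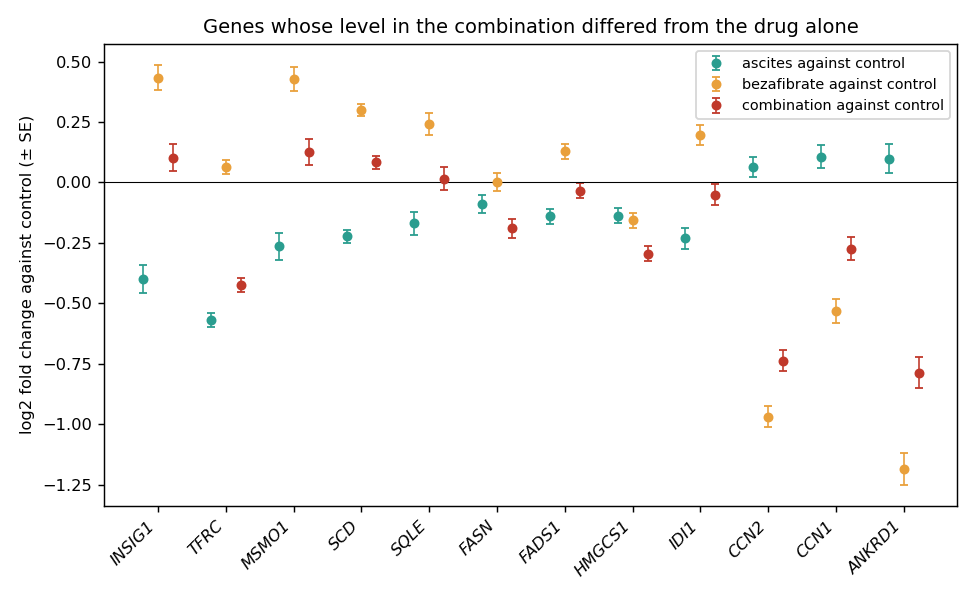
Points show the log2 fold change against control (vertical, ± SE) of 12 genes that differed between the combination and bezafibrate alone, for ascites, bezafibrate and both together. For TFRC the values are -0.57, 0.06 and -0.42, and for ANKRD1 they are 0.10, -1.18 and -0.79.

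**Figure D4:**
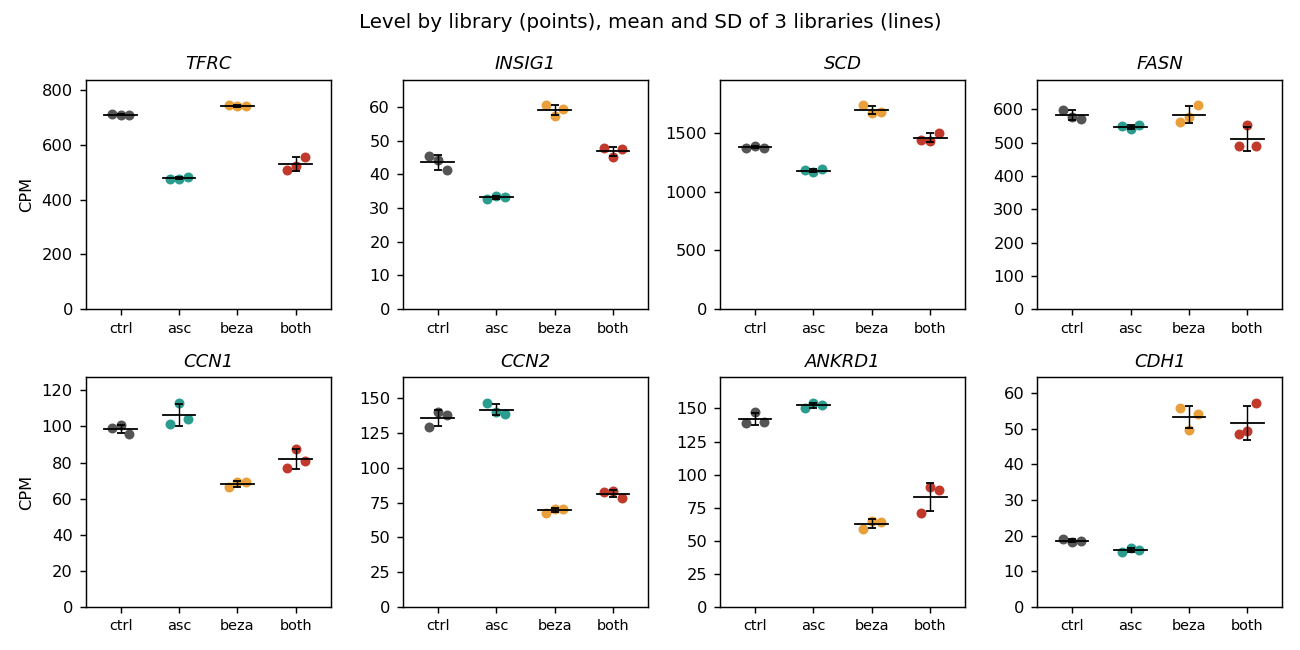
Each panel plots the level in CPM of 1 gene in the 3 libraries of control (ctrl), ascites (asc), bezafibrate (beza) and the combination (both), with lines for the mean and SD. INSIG1 in the combination (45.3 to 47.9 CPM) lies between the ascites libraries (32.8 to 33.6) and the bezafibrate libraries (57.5 to 60.6), while CDH1 is high in both groups given bezafibrate.

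Antiviral genes of the OAS family rose, while most interferon-stimulated genes did not pass the test. OAS1 (chr12:112906777-112933222, plus strand) encodes a sensor that makes oligoadenylates from double-stranded RNA, and it rose 5.39-fold, from 15, 18.6 and 16.8 CPM to 91.9, 85.4 and 93.5 CPM. OAS3 rose 2.11-fold, from 75.9, 71.1 and 80.1 CPM to 158, 154 and 168 CPM, and OASL rose 2.19-fold from a mean of 1.67 CPM. Outside the family 4 of 22 tested genes were called, all higher, with IRF1 (0.99), DTX3L (0.37) and ISG15 (0.30) among them. That share, 18.2% of the list, matches the share of all genes tested. GBP4, a guanylate-binding protein induced by interferon, rose 6.13-fold from a mean of 0.461 CPM.

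The promoter of OAS3 is shown for its interferon-type element. The search used GAAANNGAAA on both strands in the same 250 bases, and 221 of 10037 promoters, 2.20%, held it. Only 2 promoters of the OAS list could be searched, and 1 of them, that of OAS3, held it. Among the interferon-stimulated genes outside the OAS family 10 of 16 promoters searched held it, ISG15 among them, although most genes of that list were not called. The OAS3 window is chr12:112938224-112938473 on the plus strand, with both matches in capitals, the first beginning 143 bases before the start.
OAS3: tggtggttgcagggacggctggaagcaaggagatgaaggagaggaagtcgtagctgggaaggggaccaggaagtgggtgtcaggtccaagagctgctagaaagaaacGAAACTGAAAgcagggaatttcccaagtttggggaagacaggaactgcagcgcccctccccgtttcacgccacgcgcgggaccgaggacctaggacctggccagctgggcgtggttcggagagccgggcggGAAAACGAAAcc
The letters show where the element sits and say nothing about which factor was bound.

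Cytokine genes were mostly too low to test, with 11 of 28 passing the filter. CSF2, the granulocyte-macrophage growth factor, rose 8.40-fold from 1.02, 0.882 and 0.714 CPM to 7.80, 7.64 and 6.84 CPM (log2 3.07 ± 0.21 SE, edgeR adjusted p 1.89e-14). VEGFA, the vascular growth factor, rose by 0.28, and IL18 fell by 0.54. In the NF-kB list 4 of 19 rose, the adaptor kinase IRAK2 (0.67) and the inhibitors NFKBIE (0.50), NFKBIA (0.27) and the subunit gene NFKB2 (0.24), and NFKBIZ, a nuclear cofactor, fell by 0.80. That was 26.3% called, beside 18.2% of all genes, with a list median of 0.02.

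Stress programmes moved weakly. Of 23 tested genes of the ATF4 amino acid response 7 were called higher and none lower, 30.4% called beside 18.2% of all genes. The median was 0.11, and 4 were called higher without the second control library. VLDLR was by far the largest, followed by CEBPB (0.57), ASNS (0.26) and PCK2 (0.24), and ATF4 itself rose by 0.11. DDIT3 (0.11) and TRIB3 (0.21), which mark a strong response, were not called. Of 17 genes of the unfolded protein response 4 were called, 23.5% and near the share of all genes: the chaperone HSPA5 (0.16), the transcription factor XBP1 (0.24) and SEL1L (0.16) were higher and CALR (-0.08) was lower. The CALR call was lost with only the compared groups fitted and without the first control, the third control or the second combination library. The NRF2 list held 7 rises and 3 falls among 22 (1 fall without the third control library), led by the aldo-keto reductases AKR1B10, AKR1C1 and AKR1C2 (0.81, 0.81 and 0.57), the last pair being close paralogs whose reads can be split. The glutamate-cysteine ligase subunits GCLC (0.03) and GCLM (0.16) were not called, and GPX4, which protects membranes from lipid peroxides, rose by 0.28.

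CYP2B6, a drug-metabolising cytochrome P450, rose 1.46-fold from 209, 196 and 204 CPM to 302, 290 and 300 CPM, and its electron donor POR rose 1.48-fold. SQSTM1, an autophagy receptor, rose 1.58-fold from 292, 276 and 282 CPM to 455, 454 and 434 CPM, with exon sequence shared with MRNIP. Glycolysis gave 4 rises and 2 falls among 29 genes, 20.7% called and near the 18.2% of all genes, with SLC2A1, the glucose transporter, up by 0.40 and PFKFB3 down with a log2 change of -0.19. The rises came to 2 without the first control library, and the falls to 6 with upper-quartile scaling.

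Cell cycle genes that passed the test were mostly lower. In the G2/M list 9 of 36 were called lower and none higher. That was 25% called, where 18.2% of all genes were called and 7.96% were called lower. The list median was -0.07 (-0.03 without the first combination library). AURKB, a mitotic kinase, was at 131, 130 and 129 CPM in control and 110, 105 and 102 CPM in the combination, a log2 change of -0.30. The count was 5 without the third control library or the first combination library and 13 without the third combination library. Ki-67, from MKI67, had a log2 difference of -0.11 (edgeR adjusted p 0.0563) and was not called. Among 38 replication genes 6 fell, MCM3 (-0.18) and POLE (-0.16) foremost, and 3 rose, of which E2F2 had the largest change (0.69). That was 23.7% called, near the 18.2% of all genes. With upper-quartile scaling 10 were called lower. CDKN1A, the inhibitor p21, rose 1.99-fold from 13, 12.4 and 11.1 CPM to 27.6, 20.2 and 24.3 CPM, but MDM2, another p53 target, had a log2 difference of -0.06 and was not called. GADD45A (0.39) and PMAIP1 (0.25) rose and CCNG2 fell by 0.40.

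In the list of ERBB receptors and ligands 4 of 8 tested genes rose and 3 fell. The ERBB ligands AREG, EREG, TGFA and NRG4 rose by 0.64, 0.57, 0.50 and 0.38, and the receptors EGFR, ERBB2 and ERBB3 had called changes of -0.22, -0.19 and -0.16. EREG, for example, went from 69.1, 70.2 and 72.9 CPM to 102, 110 and 104 CPM. The count of 3 lower receptors was 1 under DESeq2, without the first or the third control library, and without the first or the second combination library. Of 24 immediate-early and MAP kinase feedback genes 7 rose and 4 fell. JUN, an immediate-early factor, rose 1.89-fold and DUSP1, a phosphatase that ends MAP kinase signalling, rose 1.43-fold. The feedback inhibitors SPRY1, SPRY2 and SPRY4 had called changes of -0.56, -0.29 and -0.16, while FOS (0.01) and EGR1 (-0.25) were not called.

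YAP targets had 8 members called lower and none higher among 13, with a median of -0.17. ANKRD1 stood at 139, 147 and 140 CPM in control and 71.0, 90.5 and 88.3 CPM in the combination. F3, the coagulation tissue factor, fell by 0.77 and CCN2 by 0.74, and the list also held WWC1, CCN1, LATS2, AXL and TEAD1 as called and lower. AMOTL2 (0.04) and NT5E (0.06) were not called. In the TGF-beta list 4 of 20 tested genes rose and 4 fell, with a median of -0.01. That was 40% called, beside 18.2% of all genes. The lists were chosen with earlier results of these data known, so this share is a description only. The ligands TGFB2 (-0.66) and TGFB3 (-0.47) were lower, the latter under few of the alternatives, and the co-receptor gene TGFBR3 rose by 0.42.

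Adhesion and matrix genes changed often. CDH1, which encodes E-cadherin, rose 2.77-fold from 19, 18.3 and 18.5 CPM to 48.6, 49.3 and 57.2 CPM. CLDN4 (0.65) and ESRP1 (1.82, mean 0.253 CPM in control) rose, yet so did the mesenchymal regulators ZEB2 (1.02) and SNAI2 (0.71), and the epithelial claudin CLDN7 fell by 0.69. FN1, the fibronectin gene, fell by 0.54. Of 26 collagens, laminins and integrins 13 rose and 4 fell. ITGA6, part of the laminin receptor, rose 1.77-fold from 199, 202 and 198 CPM to 347, 344 and 367 CPM, and the laminin-332 chains LAMA3 and LAMB3 rose by 0.78 and 0.62. The collagens COL1A1 and COL3A1 fell by 0.83 and 0.58, both at low levels, with a mean of 6.23 CPM in control for COL1A1. The falls numbered 2 when only the compared groups were fitted, without any 1 control library or without the second combination library. COL1A1 and COL3A1 are also in the list of 8 fibroblast markers, where the other called members were LUM (-0.18) and PDGFRA (-0.96), both lower. The summed level of that list went from between 233 and 245 CPM to between 183 and 198 CPM, and COL1A2 and DCN had 1 count each or none in either group. Their part in the collagen falls was not tested. KRT7 rose by 0.64 among the epithelial keratins.

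**Figure D5:**
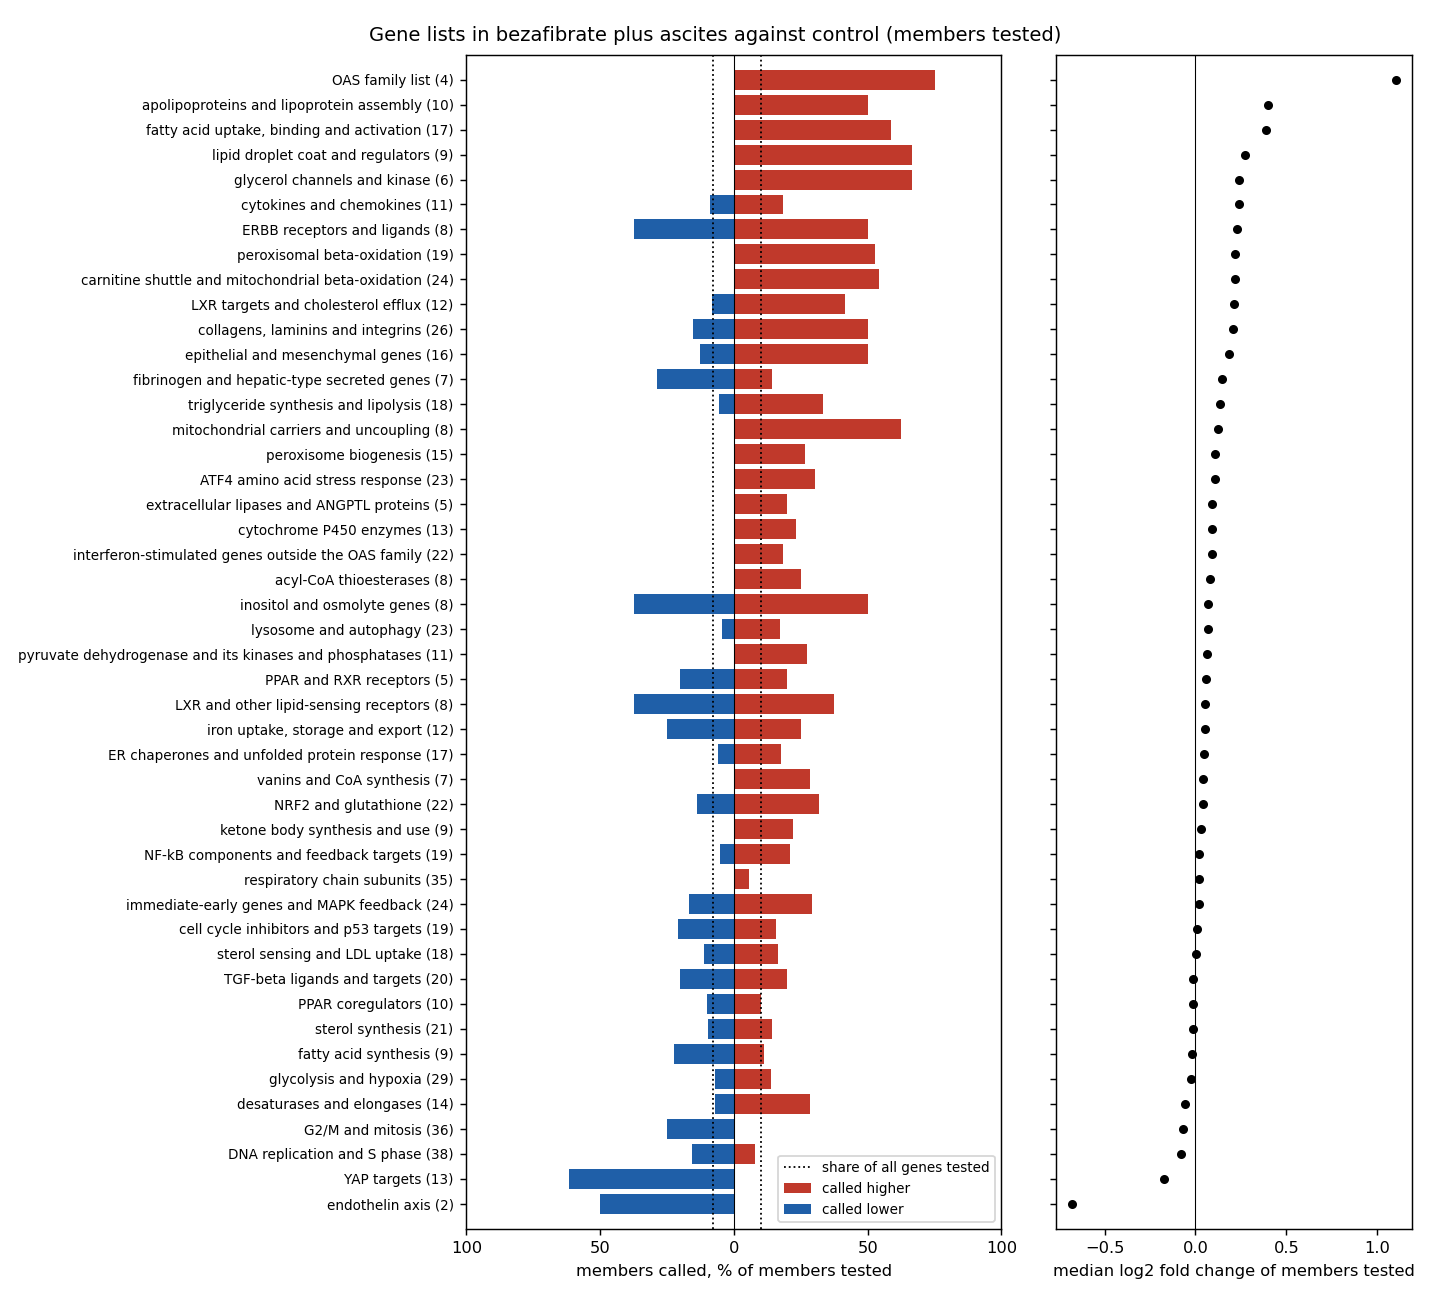
For each of 46 gene lists (number of tested members in brackets) the left panel gives the share of tested members called higher (red) or lower (blue), in percent, with dotted lines at the shares of all genes tested (10.3% and 7.96%). The right panel gives the median log2 fold change. The OAS family, apolipoproteins and fatty acid uptake stand at the top, and YAP targets and the 2 tested endothelin genes at the bottom.

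Several of the largest changes were outside these lists. LRRC31 rose 8.10-fold, from 1.36, 0.588 and 1.98 CPM to 9.50, 11 and 11.4 CPM. BRINP2, PHLDA3, CORO2B and SOX8 also rose between 4.69-fold and 5.85-fold, all from below 2.3 CPM. PHLDA3 is a p53 target that restrains AKT. HR, a corepressor of nuclear receptors, rose 3.03-fold from 42.1, 38.6 and 40.0 CPM to 130, 122 and 114 CPM. The 15 largest falls among genes of at least 1 CPM were all in genes under 21 CPM in control. NYAP2 fell by 1.82, from 3.89, 3.31 and 4.68 CPM to 0.880, 1.19 and 1.35 CPM, and LRRC17, a secreted leucine-rich repeat protein, fell by 1.41, from 11.7, 10.1 and 11.9 CPM to 4.58, 3.74 and 4.22 CPM. KLRC2 and KLRC3 fell by 1.23 and 1.61, but they are near-identical receptor genes that share exon sequence, so their values are uncertain. SLC3A1, which shares exons with PREPL, fell by 1.07. EDN1, the vasoconstrictor endothelin, fell by 1.34 from 1.77, 1.98 and 1.35 CPM to 0.469, 1.02 and 0.591 CPM. The fibrinogen chain FGB fell by 1.02 from a mean of 3.62 CPM, and FGA was lower by 1.12 at the threshold (edgeR adjusted p 0.0497). SLC5A3, the sodium-coupled inositol transporter, fell by 0.42, while COL21A1, TINAG and SIPA1L2 fell by 1.17, 1.12 and 1.05.

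Without the third combination library the called rises were 6 in the lipid droplet list, 10 in fatty acid uptake, 15 in mitochondrial and 9 in peroxisomal beta-oxidation, and YAP targets again had 8 called lower. Counted once each, 699 genes of the lists were tested and 256 were called, 182 higher and 74 lower. These lists were drawn up around pathways known to answer to fibrates or to ascites, so their share is given as a description and not as a comparison with other genes.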

How the data were processed

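Strandedness and annotation release are not given in the sources used here. Per the submitters' processing notes, the tools named are Trimmomatic 0.39, STAR 2.7.9a, RSEM 1.3.3 and DESeq2 1.28.1, with genome build GRCh38 and no order. The deposited values are estimated counts per gene made by the authors, stored as whole numbers, with 1 column of counts per library.

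From these counts genes were kept with edgeR's filterByExpr (minimum count 10, total 15), scaled by TMM, and fitted with edgeR 4.0.16 (R 4.3.3) in its robust quasi-likelihood test over all 12 libraries, so that all 4 groups shared 1 estimate of the spread (8 residual degrees of freedom). P-values were adjusted by Benjamini-Hochberg over the 12470 genes tested, and called means an adjusted p under 0.05. Levels are CPM, counts divided by the scaled library size. Log2 fold changes are those of the edgeR fit, with its default prior count. The log2 levels behind the principal components and the replicate correlations use a prior count of 2. The pipeline was tested on simulated data. Named genes were the 15 largest called rises and falls with at least 1 CPM and groups that did not overlap, up to 4 called members of each list, up to 10 genes called against both bezafibrate and control, and a fixed set. Some genes that these rules name are not reported here. The members and lists were chosen with earlier results of these data known. Gene positions and exon overlaps come from GENCODE and promoters from RefSeq. Alternatives were other scalings, filters and tests (DESeq2 1.42.0, limma-voom 3.58.1), a replicate block and leaving out each library.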

Additional observations from a re-analysis of the deposited data

How the results depend on the processing

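Replicate numbers did not pair the libraries: the correlations of deviations between same-numbered combination and control libraries were -0.003, 0.090 and -0.0004, and a fit with the replicate number as a block called 2213 genes against control, 14 against bezafibrate and 2154 against ascites. Without a filter on low counts 52 genes differed from bezafibrate alone, and 7 when only these groups were fitted. At an adjusted p under 0.01 the calls were 589 lower against control, 6 against bezafibrate and 1475 against ascites. Tested against a change of 1.5-fold, 155 genes passed against control (137 higher, 18 lower), 164 against ascites and 0 against bezafibrate, where edgeR called 16 without that minimum. Leaving out 1 library at a time gave 1791 to 2385 calls against control (1060 to 1336 higher, 731 to 1049 lower), 9 to 28 against bezafibrate and 1742 to 2188 against ascites. With a pair of libraries in a group, the spread is borrowed from the other groups. DESeq2 called 1788 genes against control, limma-voom 2235 and upper-quartile scaling 2402. Of 186 named genes 180 were called, which follows largely from naming rules that mostly require a call. None changed direction under the alternatives, and 143 were called under every alternative that kept the threshold. PPCS, SLC25A4, CYP20A1, PEX7 and PEX13 lost their calls under 10 to 13 alternatives. Depth limits genes under 1 CPM, of which 5.75% were called, against 28.2% at 100 CPM or more.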
